A study of Mus musculus with 12 samples.

Results

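Methylation of lysine 36 on histone H3 (H3K36) is set by methyltransferases and removed by demethylases, and the mRNA of 10 such enzymes was followed in reprogramming fibroblasts. The genes were the methyltransferases Setd2, Nsd1, Nsd2, Nsd3 and Ash1l and the demethylases Kdm2a, Kdm2b, Kdm4a, Kdm4b and Kdm4c, found through their Ensembl identifiers as 10 of the 55573 rows of a raw count table. All 10 passed the filter on low counts, so all were among the 19174 genes tested. RNA-seq had been run on fibroblasts taken from C57BL/6 mouse embryos at E13.5 (MEFs). They carry a doxycycline-inducible cassette of Oct4, Sox2, Klf4 and Myc (OSKM), the factors that turn fibroblasts into induced pluripotent stem cells. Cells of 3 embryos, named clones 1 to 3, were each divided over 4 groups. These were untreated cells (MEF), cells with vitamin B12 at 2 µM (MEF+B12), cells with doxycycline at 1 µg/ml (OSKM) and cells with both (OSKM+B12), all collected after 72 h, which gave 12 libraries. All cells carried the cassette and were kept in the same serum replacement medium. The doxycycline dose is the one in the labels, and the study's methods state 1 mg/ml for cultured cells, a disagreement that could not be settled here. Uninduced cells got no doxycycline, so effects of the drug and of OSKM cannot be told apart, and 3 embryos are the only biological replicates. In bulk RNA, fewer cells of a type and less RNA per cell cannot be told apart either.

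The enzymes divide the work by the number of methyl groups. SETD2 places the third methyl group (H3K36me3) while it travels with elongating RNA polymerase II, so the mark covers the bodies of transcribed genes and is read there by proteins that, among other tasks, keep transcription from starting inside genes. NSD1, NSD2, NSD3 and ASH1L place the lower methylation states, which also lie between genes. KDM2A and KDM2B remove these lower states, and the KDM4 enzymes remove the higher states and also act on H3K9. The methyltransferases take their methyl group from S-adenosylmethionine (SAM), whose supply runs through methionine synthase, an enzyme that needs B12.

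The loci lie on 8 chromosomes of GRCm38, and all 10 are protein-coding genes. Setd2 (ENSMUSG00000044791) lies at chr9:110532597-110618633 on the plus strand. Nsd2 (ENSMUSG00000057406) lies at chr5:33820725-33897975 on the plus strand, and Kdm2b (ENSMUSG00000029475) at chr5:122870665-122989823 on the minus strand. Kdm4a (ENSMUSG00000033326) lies at chr4:118136957-118180043 on the minus strand. The other methyltransferase genes are Nsd1 (chr13:55209782-55318325), Nsd3 (chr8:25601601-25719667) and Ash1l (chr3:88950622-89079375), all on the plus strand. The other demethylase genes are Kdm2a (chr19:4314419-4398285, minus), Kdm4b (chr17:56326062-56402870, plus) and Kdm4c (chr4:74242497-74405860, plus). For 9 of the genes at most 1.45% of the 31-base words of their transcripts also occurred in other genes. For Kdm2b this was 6.38%, and 124 of its exonic bases lay in Gm44574 on the same strand, so its counts are somewhat less certain.

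RefSeq promoters (GRCm38.p6) were at hand for 4 of the 10 genes. Those of Setd2, Kdm2b and Kdm4a are shown. Setd2 codes for the only H3K36me3 methyltransferase of the set, Kdm2b changed with induction and Kdm4a was the most abundant per length. Each run holds the 250 bases before a transcription start, with the CpG dinucleotides in capitals. CpGs are shown since KDM2A and KDM2B carry a CXXC zinc finger that binds unmethylated CpG.
Setd2, chr9:110532347-110532596, plus strand: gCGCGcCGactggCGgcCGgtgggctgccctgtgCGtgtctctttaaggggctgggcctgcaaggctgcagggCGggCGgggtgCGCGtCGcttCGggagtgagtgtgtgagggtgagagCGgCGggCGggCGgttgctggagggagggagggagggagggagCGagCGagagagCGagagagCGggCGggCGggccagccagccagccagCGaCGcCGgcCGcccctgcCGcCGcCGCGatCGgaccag
Kdm2b, chr5:122900368-122900617, minus strand: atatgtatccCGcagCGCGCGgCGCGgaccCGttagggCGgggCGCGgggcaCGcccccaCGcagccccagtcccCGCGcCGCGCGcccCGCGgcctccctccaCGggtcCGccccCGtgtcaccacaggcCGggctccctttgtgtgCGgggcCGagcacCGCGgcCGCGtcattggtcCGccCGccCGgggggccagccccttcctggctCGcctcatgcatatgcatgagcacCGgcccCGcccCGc
Kdm4a, chr4:118180044-118180293, minus strand: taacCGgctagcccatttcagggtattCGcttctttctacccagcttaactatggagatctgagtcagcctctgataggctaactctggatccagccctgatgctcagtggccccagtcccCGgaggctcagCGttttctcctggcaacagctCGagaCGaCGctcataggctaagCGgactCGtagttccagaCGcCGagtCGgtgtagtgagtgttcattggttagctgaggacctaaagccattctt
The Setd2 run held 31 CpGs, the Kdm2b run 36 and the Kdm4a run 12. The 300-base promoters, which add the first 50 transcribed bases, held 38, 47 and 13, against a median of 7 over 32851 RefSeq promoters. Those of Kdm4c, not shown, held 0 and 28. This Kdm2b start lies within the gene, downstream of other annotated starts, and was taken because it was the one of 4 whose 250 bases overlapped no annotated exon. The 300-base promoters of the others held 49 CpGs at the neighbouring internal start and 18 and 28 at both upstream starts, so the internal starts were the richer ones. The shown start does not stand for the whole gene, and transcripts that begin inside Kdm2b are known to lack the demethylase domain. The counts are summed over the gene, so the long and short forms were not separated. Of 8 promoter windows of the 4 genes, 1 (of Kdm4c) held CACGTG, the E-box that Myc proteins bind, searched on both strands, against 7.15% of all promoters. None of the 8 held the octamer ATGCAAAT on either strand, which 1.74% of all promoters held.

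The 12 libraries held 56971244 to 79236795 counted read pairs. Counts of the 10 genes ran from 1516 (Kdm4c) to 8264 (Kdm2a) per library, for which counting error alone is 2.57% and 1.1%. The induced cells had more Pou5f1, which encodes Oct4 (log2 fold change averaged over B12 5.96 ± 0.15, SE, edgeR adjusted p = 1.14e-08), and more Sox2 (4.22 ± 0.29, adjusted p = 7.13e-05). Myc rose by 0.88 ± 0.17 (adjusted p = 0.0206), while Klf4, high in every library, was slightly lower (-0.12 ± 0.03, adjusted p = 0.0452). Clone 3 reached much lower levels of the first 3 factors than clones 1 and 2. In the OSKM libraries of clones 1, 2 and 3 Pou5f1 stood at 19.4, 18.5 and 2.86 CPM (CPM being counts per 1e+06 counted pairs after scaling). Sox2 stood at 15.5, 13.3 and 2.33 CPM and Myc at 53.4, 44.0 and 20.1 CPM, the last close to the 18.6 CPM of clone 3 in MEF. Every value of induction below thus averages embryos with unequal cassette expression. Fibroblast markers were high throughout, with a summed level of 91070 to 144100 CPM over 10 genes. Libraries of the same embryo deviated together, so the clone was a term of the fit. The tests of the 10 enzymes, and the calls among the lists of related genes below, were repeated without the OSKM library of clone 1. Those calls that change are given both ways. Calls of the cassette and cell marker genes were not checked in this way. Over all genes, 771 passed for induction averaged over B12 without this library, against 1865 with it.

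Levels of different genes were compared as CPM per kilobase of merged exons, averaged over the 12 libraries. Kdm4a, an H3K36me3 and H3K9me3 demethylase, was highest at 13.8 ± 0.70 (SD, n = 12), and its range did not overlap that of any other gene of the set. Setd2 followed at 8.17 ± 0.78. The next level was that of Kdm2a, at 6.99 ± 0.28. Setd2 was above Kdm2a in each of the 12 libraries, although their ranges over all libraries overlapped. With the length of the longest transcript this order was turned, with Kdm2a at 11.8 and Setd2 at 10.5 CPM per kilobase. Kdm4b, the paralog of Kdm4a, stood at 6.33 ± 0.27. Nsd1 (4.98 ± 0.36), Ash1l (4.93 ± 0.73) and Kdm4c (4.73 ± 0.20) could not be put in order beyond their spread, as Nsd1 exceeded Ash1l in 7 of 12 libraries and Ash1l exceeded Kdm4c in 6. Nsd3 was at 4.48 ± 0.18, below Kdm4c in 11 libraries. Nsd2 (3.28 ± 0.38) and Kdm2b (2.85 ± 0.22) were lowest, with Nsd2 above Kdm2b in 11 libraries. The set thus spanned the 42.4th to the 79.3rd percentile of 14654 tested protein-coding genes, whose median was 3.93 CPM per kilobase. The highest mean was 4.84 times the lowest with merged exons and 2.86 times with the length of the longest transcript, which raised Nsd2 from rank 9 to 5 and lowered Kdm4b from 4 to 7.

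**Figure D1:**
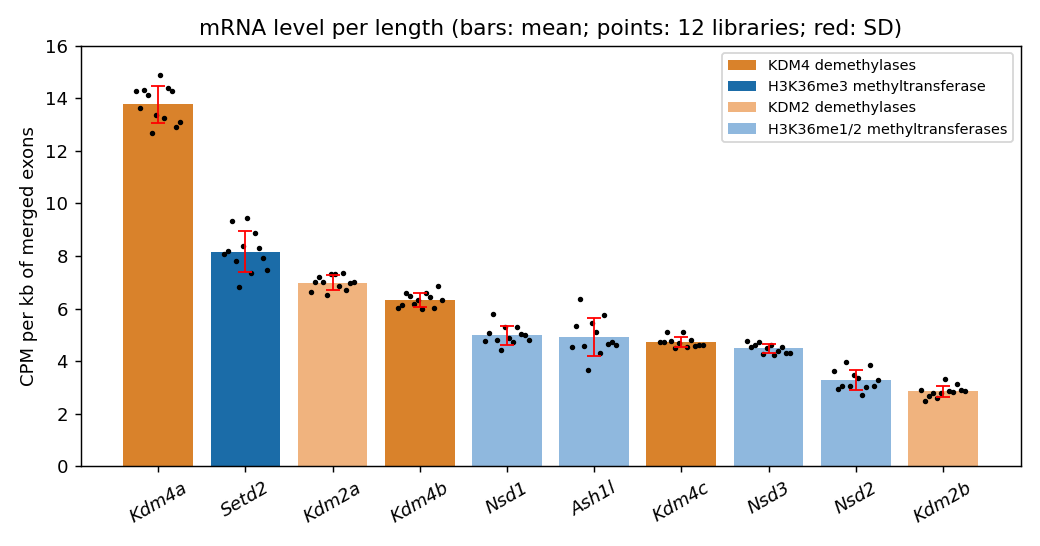
mRNA level of the 10 enzymes in CPM per kilobase of merged exons. Bars are means over 12 libraries, points are the single libraries and red bars are SD; Kdm4a stands clear of the rest at 13.8, while Nsd1, Ash1l and Kdm4c overlap between 4.73 and 4.98.

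The 5 methyltransferases together reached 0.774 ± 0.034 of the summed demethylase level per kilobase in MEF (SD, n = 3), 0.736 ± 0.052 in MEF+B12 and 0.732 ± 0.043 in OSKM. The ratio was 0.737 ± 0.020 in OSKM+B12. The single libraries lay between 0.683 and 0.812, and the 4 groups overlapped.

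The 5 genes whose libraries are not listed singly below moved within narrow ranges. Over the 12 libraries Nsd1 ranged from 77.0 to 102 CPM and Nsd3 from 69.7 to 78.7 CPM. Kdm2a ranged from 94.0 to 106 CPM, Kdm4b from 29.2 to 33.5 CPM and Kdm4c from 26.1 to 29.7 CPM. The highest library of Nsd1 was 1.32 times its lowest, and the same ratio was 1.13 to 1.15 for the other 4.

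Induction was examined first, without and with B12 and then averaged over both. The averaged comparisons, here and for B12 below, counted both pairs of an embryo separately, so their errors may be too small. Of the 10 genes, 1 rose with induction in the averaged comparison, Kdm2b, and none fell. This compares with 9.73% of all genes tested that passed the same test (edgeR quasi-likelihood test, adjusted p under 0.05), so the share of the set was close to the background. In the single comparisons none of the 10 passed, where 0.0730% of all genes passed without B12 and 0.104% with B12. In each of them 1 of the 10 had an unadjusted edgeR p under 0.05, against 19.0% of all genes without B12 and 14.9% with B12, and DESeq2 called none either. The median log2 fold change of the set was -0.00 in the averaged comparison and the median over all genes was -0.00.

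KDM2B recruits the variant Polycomb complex PRC1.1 to CpG islands besides its action on H3K36. Kdm2b stood at 31.6, 27.1 and 29.0 CPM in the MEF libraries of clones 1, 2 and 3, and at 35.9, 31.2 and 30.8 CPM in the OSKM libraries. With B12 it stood at 30.3, 28.3 and 30.2 CPM in uninduced cells and at 34.1, 31.5 and 31.1 CPM in induced cells. Each of the 6 induced libraries was higher than the uninduced library of the same clone and B12 state, and the groups did not overlap with B12 but did without it. This was the only separation of ranges among the 10 genes and the 4 single comparisons. Over all genes tested the ranges were separate for 10.5% in the comparison with B12 and for 9.09% without it, and for 9.39% and 7.53% in the B12 comparisons in MEF and OSKM, so 1 of 10 with B12 was the background share. Averaged over B12, Kdm2b rose by 0.14 ± 0.04 on the log2 scale (SE; 95% interval 0.06 to 0.22, edgeR adjusted p = 0.0347), a 1.1-fold difference. Its log2 fold changes were 0.16 without B12 (adjusted p = 0.169) and 0.12 with B12 (adjusted p = 0.282). The rise was 0.18 in clones 1 and 2 and 0.07 in clone 3, and the test of a difference between clones gave an edgeR adjusted p of 0.644. Among the cassette genes, induction changes in clones 1 to 3 were 4.35, 4.99 and 2.45 for Sox2 and 1.18, 1.32 and 0.11 for Myc. For Pou5f1 they were 5.617, 5.908 and 6.125, where the MEF library of clone 3 held 0 counts. Those of Klf4 were -0.127, -0.125 and -0.097. The part of the cassette in the Kdm2b values was not tested. The call was lost without clone 1 (0.12, edgeR adjusted p = 0.262), without clone 2 (0.13, adjusted p = 0.426), without the OSKM library of clone 1 (0.13, adjusted p = 0.057), and without the clone term (0.14, adjusted p = 0.329).

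Cell identity genes moved in the same averaged comparison, in which 9.73% of all genes passed. Of 10 fibroblast markers, 4 fell with induction, among them Col1a1, a chain of type I collagen (-0.35 ± 0.08, edgeR adjusted p = 0.0277), and none rose. The summed fibroblast markers ranged from 114300 to 144100 CPM in the 6 uninduced libraries and from 91070 to 118400 CPM in the 6 induced ones. Of 11 macrophage markers, 4 fell. Of the 3 endothelial genes that could be tested, Tek and Cdh5 rose by 1.26 and 1.22 and Kdr was at 0.01 (adjusted p = 0.965). Tek and Cdh5 too differed little in clone 3 (0.32 and 0.25), against 1.83 and 1.43 in clone 1 and 1.60 and 1.96 in clone 2, and the defining endothelial genes Pecam1, Emcn and Cldn5 were too low to be tested. Of 5 neural genes Tubb3 fell (-0.42 ± 0.10, adjusted p = 0.0296), and of 5 muscle genes only Des was high enough to test (-0.33 ± 0.11, adjusted p = 0.0776). Their part in the Kdm2b result was not tested.

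Setd2, the H3K36me3 writer, did not pass in any comparison. It stood at 86.8, 87.9 and 100.3 CPM in the MEF libraries of clones 1 to 3 and at 102, 79.2 and 95.5 CPM in the OSKM libraries. Clone 1 was higher after induction while clones 2 and 3 were lower, so the groups overlapped. The log2 fold change was 0.00 ± 0.08 without B12 (95% interval -0.18 to 0.18, edgeR adjusted p = 0.987) and 0.05 ± 0.08 with B12 (-0.13 to 0.23, adjusted p = 0.842). With 3 embryos the interval thus holds a difference of up to 0.18 in either direction without B12.

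Among the other methyltransferases, Nsd2 was lower in each of 6 induced libraries than in its uninduced partner, by 0.01 to 0.12 on the log2 scale. Its averaged difference was -0.07 ± 0.03 (95% interval -0.13 to -0.00, edgeR adjusted p = 0.182). Nsd3, a further writer of the lower methylation states, was lower in 5 of 6 pairs (-0.05 ± 0.03, edgeR adjusted p = 0.247). Neither passed the threshold. Nsd1, the gene altered in Sotos syndrome, and Ash1l, the Trithorax-group enzyme, were higher in 3 pairs and lower in 3. Their averaged log2 fold changes were -0.02 and -0.03, with edgeR adjusted p-values of 0.846 and 0.863.

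The demethylases other than Kdm2b differed little. Averaged over B12, Kdm2a, the paralog of Kdm2b, differed by 0.02 (95% interval -0.06 to 0.10). Kdm4a differed by 0.01 (-0.06 to 0.07), Kdm4b by 0.01 (-0.07 to 0.10) and Kdm4c by -0.01 (-0.09 to 0.07). The lowest edgeR adjusted p among these 4 was 0.765. These intervals reach to about 0.10 on the log2 scale at most, and as averaged comparisons they may be too narrow.

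**Figure D2:**
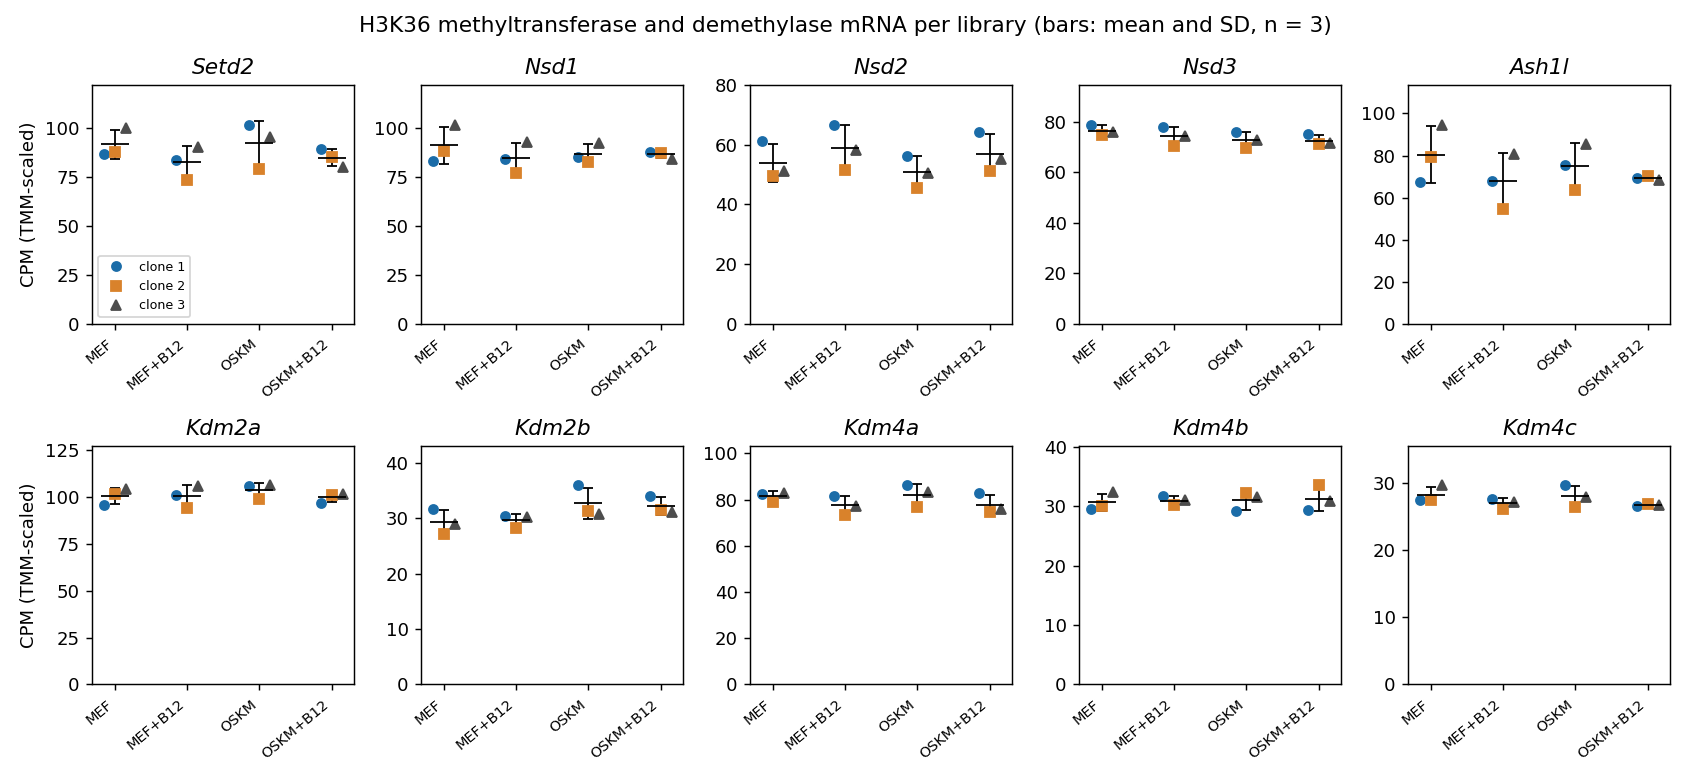
CPM of each enzyme gene in the 12 libraries, by group, with a point for each clone and black bars for the mean and SD of 3 libraries. Differences between clones within a group are often as large as those between groups; Kdm2b is higher in the induced groups and Nsd2 in the B12 groups within each clone.

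The B12 groups were then compared with their counterparts without B12, in uninduced cells, in induced cells and as the average of both. Of the 10 genes, 1 rose with B12 in the averaged comparison, Nsd2, and none fell, where 3.84% of all genes passed the edgeR test. None of the 10 passed in the single comparisons, in which 1.38% of all genes passed in MEF and 1.06% in OSKM. At an unadjusted edgeR p under 0.05 there were 2 of the 10 in MEF, 1 in OSKM and 4 in the averaged comparison, against 10.3%, 9.82% and 15.5% of all genes, and DESeq2 called none in the single comparisons. The median log2 fold change of the set in the averaged comparison was -0.04, with 7 of 10 below 0, against -0.01 over all genes.

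NSD2, a main source of H3K36me2 in many cell types, is the enzyme overexpressed in t(4;14) myeloma. Nsd2 stood at 61.1, 49.6 and 51.1 CPM in the MEF libraries of clones 1, 2 and 3, and at 66.7, 51.5 and 58.4 CPM in MEF+B12. In induced cells it stood at 56.3, 45.7 and 50.6 CPM without B12 and at 64.4, 51.0 and 55.2 CPM with B12. Each of the 6 libraries with B12 was higher than its partner without, by 0.06 to 0.19 on the log2 scale, but the groups overlapped because clone 1 was high throughout. Averaged over induction the log2 fold change was 0.14 ± 0.03 (SE; 95% interval 0.08 to 0.21, edgeR adjusted p = 0.0219), a 1.1-fold difference, and the 3 clones gave 0.16, 0.11 and 0.16. It was 0.13 in MEF (adjusted p = 0.272) and 0.16 in OSKM (adjusted p = 0.141). The call was lost without any 1 of the 3 clones, with log2 fold changes of 0.14 to 0.16 and edgeR adjusted p-values of 0.148 to 0.242. Without the clone term the value was 0.14 with an adjusted p of 0.958, and without a filter on low counts 0.14 with 0.0598. Without the OSKM library of clone 1 it passed (0.13, edgeR adjusted p = 0.0317).

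Macrophage genes moved with B12. Of 11 macrophage markers 8 rose in the averaged comparison, where 3.84% of all genes passed in either direction. None passed as lower, and the median was 0.56. Among those that rose were Mrc1, the mannose receptor (0.86 ± 0.08, edgeR adjusted p = 0.000206), and Csf1r, the CSF1 receptor (0.71 ± 0.08, adjusted p = 0.000773). Cx3cr1 went the other way in every clone, while the other 10 were above 0. It stood at 5.23, 3.35 and 6.56 CPM in MEF and at 3.89, 2.19 and 4.85 CPM in MEF+B12. In induced cells it stood at 1.91, 1.99 and 6.50 CPM without B12 and at 1.41, 1.43 and 4.99 CPM with it. The summed level of the 11 markers was 1641 ± 544 CPM in MEF and 2355 ± 604 CPM in MEF+B12 (SD, n = 3), with ranges of 1160 to 2232 and 1747 to 2955. It was 1491 ± 477 CPM in OSKM and 2087 ± 291 CPM in OSKM+B12. The part of these markers in the Nsd2 result was not tested. The 10 fibroblast markers had averaged values below 0 with B12, of which none passed. An unadjusted edgeR p under 0.05 was held by 3 of them, against 15.5% of all genes. None of the 3 endothelial, 1 muscle and 5 neural markers that could be tested passed with B12 either, and at an unadjusted edgeR p under 0.05 there were 2, both neural.

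Setd2 was lower with B12 in 5 of 6 pairs. In uninduced cells it stood at 83.9, 73.3 and 90.2 CPM with B12, each below the value without B12 given above. In induced cells it stood at 89.2, 85.2 and 80.3 CPM, where clone 2 was higher than without B12. The averaged log2 fold change was -0.13 ± 0.06 (95% interval -0.26 to -0.01, edgeR adjusted p = 0.293), which missed the threshold. Ash1l had the widest spread of the set. It stood at 67.3, 79.4 and 94.7 CPM in MEF and at 67.8, 54.4 and 80.9 CPM in MEF+B12. In OSKM it stood at 75.6, 63.7 and 85.6 CPM and in OSKM+B12 at 69.1, 70.1 and 68.2 CPM. The 3 clones thus lay close together only in OSKM+B12, with an SD of 0.99 CPM against 11 to 13.7 CPM in the other groups. Setd2, Nsd1, Kdm2a and Kdm4c also had their lowest SD in this group, while the remaining genes of the set did not. An SD of 3 libraries is imprecise, and no difference in spread was tested. The averaged B12 difference of Ash1l was -0.18 ± 0.08 (95% interval -0.35 to -0.01, edgeR adjusted p = 0.303).

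Long transcripts were slightly lower with B12, mainly in uninduced cells. Over 12585 protein-coding genes, the Spearman correlation of the B12 fold change with exon length was -0.20 in MEF, -0.04 in OSKM and -0.14 in the averaged comparison. Genes of at least 10000 exonic bases had a median of -0.07 in MEF and -0.02 in OSKM, against -0.01 over all genes in both. Genes are not independent, so the correlation is a description. Of the 10 genes 7 are this long, among them Setd2, Ash1l and Nsd2, the last of which moved the other way. After a correction of each library for GC content and length, Setd2 was at -0.11 (edgeR adjusted p = 0.275), Ash1l at -0.14 (adjusted p = 0.241) and Nsd2 at 0.18 (adjusted p = 0.0115).

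Nsd1 and Nsd3 were at -0.05 and -0.02 with B12 in the averaged comparison, with edgeR adjusted p-values of 0.634 and 0.725. Kdm4a was lower in 6 of 6 pairs. Its levels were 82.6, 78.9 and 82.8 CPM in MEF against 81.6, 73.4 and 77.4 CPM in MEF+B12, and 86.1, 76.7 and 83.2 CPM in OSKM against 82.7, 74.7 and 75.8 CPM in OSKM+B12. The step was small in each clone and the groups overlapped. Its averaged log2 fold change was -0.08 ± 0.03 (95% interval -0.14 to -0.01, edgeR adjusted p = 0.239), which missed the threshold. Kdm4c was at -0.06 (95% interval -0.14 to 0.01), Kdm2a at -0.03 (-0.10 to 0.05), Kdm4b at 0.01 (-0.07 to 0.10) and Kdm2b at 0.00 (-0.08 to 0.08).

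**Figure D3:**
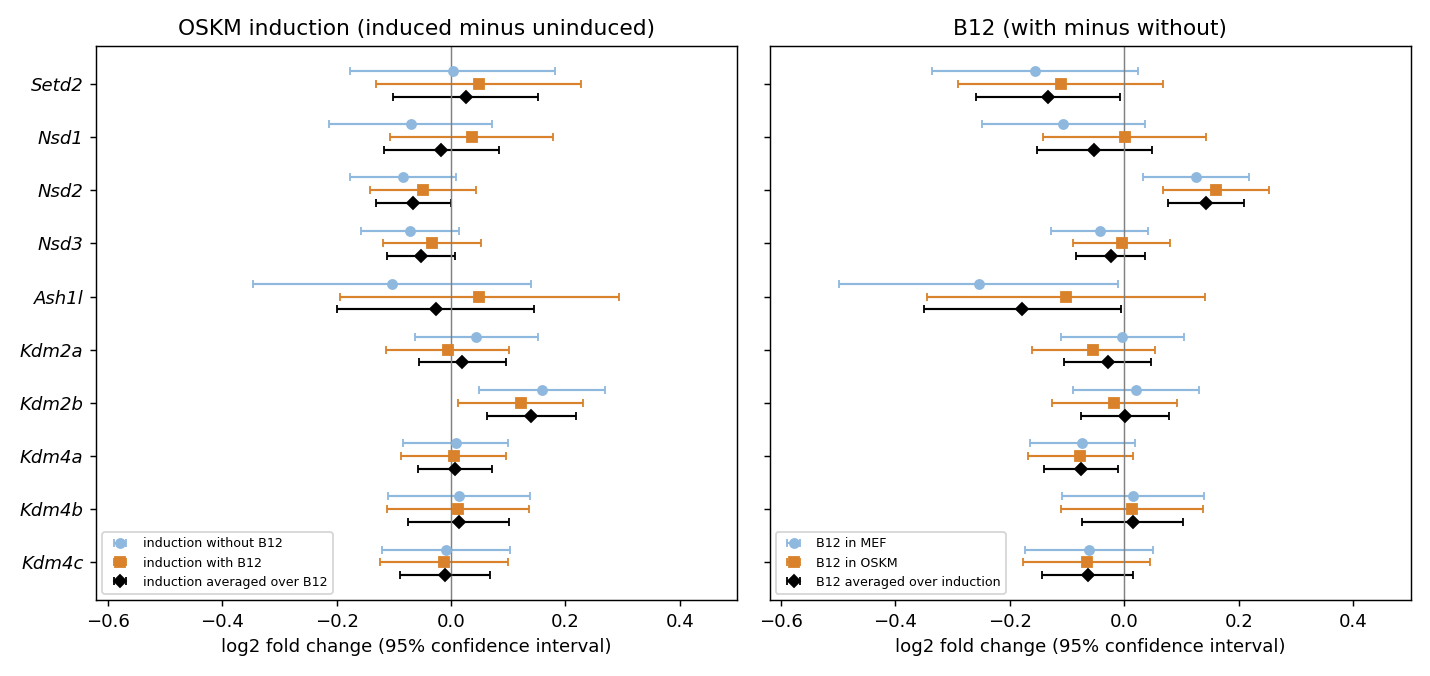
Log2 fold changes of the 10 genes with 95% confidence intervals, for induction (left) and B12 (right), in the single comparisons and averaged. Kdm2b at 0.14 on the left and Nsd2 at 0.14 on the right are the values that passed the edgeR test across all genes, both in the averaged comparison.

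Whether B12 acted differently in induced and uninduced cells was tested by the interaction. None of the 10 genes passed, and none had an unadjusted edgeR p under 0.05. Across all genes 0.00% passed, with 273 of 19174 at an unadjusted p under 0.05, and DESeq2 passed 0 as well. The widest interval in the set was that of Ash1l, 0.15 with -0.19 to 0.50. For Setd2 it was 0.05 with -0.21 to 0.30, so with 3 embryos the interval holds interactions of either sign.

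Levels were also compared between the 3 embryos. Of the 10 genes 3 differed between clones, Nsd2 (edgeR adjusted p = 0.000189), Kdm2b (adjusted p = 0.0281) and Kdm4a (adjusted p = 0.0355), where 37.8% of all genes passed, so the share of the set was near the background. Each was highest in clone 1. Nsd2 averaged 62.1 ± 4.52 CPM in clone 1, 49.5 ± 2.66 CPM in clone 2 and 53.8 ± 3.69 CPM in clone 3 (SD, n = 4). Kdm2b averaged 33.0 ± 2.5, 29.5 ± 2.17 and 30.3 ± 0.93 CPM, and Kdm4a 83.2 ± 1.95, 75.9 ± 2.39 and 79.8 ± 3.77 CPM. The library titles carry a later year for clone 1 than for clones 2 and 3, so embryo and year cannot be told apart. Between clones 2 and 3 alone none of the 3 passed, with edgeR adjusted p-values of 0.0866 for Nsd2, 0.533 for Kdm2b and 0.219 for Kdm4a. Kdm2b and Kdm4a also missed the threshold without clone 2 (0.0963 and 0.279), and Kdm2b without the OSKM library of clone 1 (0.0585). Kdm2b and Kdm4a missed it too without a filter on low counts (edgeR adjusted p = 0.07 and 0.121). The same held with the GC and length correction (0.0778 and 0.0876). The response to induction did not pass a test of differences between clones for any of the 10, where 2.15% of all genes passed. The response to B12 did not either, where 0.00% passed and 227 genes were at an unadjusted edgeR p under 0.05. In neither test did any of the 10 have an unadjusted p under 0.05.

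Across the 12 libraries, after the clone means were removed, 32 of the 45 pairs among the 10 genes had a positive Pearson correlation of log2 CPM, with a median of 0.24. The highest were Setd2 with Ash1l (0.92) and Nsd1 with Ash1l (0.92), and the lowest was Nsd2 with Kdm4a (-0.75). These points share libraries, depth and treatments, so the values are a description. Of 14853 genes with a mean of at least 1 CPM, those most like Setd2 by the same measure were Fam193a (0.97), Bptf, a subunit of the NURF remodelling complex (0.96), Rtf1, a subunit linked to the PAF complex (0.96), Zfp318 (0.96) and Map1b, a microtubule-associated protein (0.96).

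Genes around these enzymes were taken as lists. Over all genes 9.73% passed with induction and 3.84% with B12 in the averaged comparisons. An unadjusted edgeR p under 0.05 was held by 26.8% and 15.5% of all genes. Single calls in lists this short are thus no result about a list. Of 14 readers of H3K36 methylation, 1 rose and 1 fell with induction in the averaged comparison. Psip1, whose protein LEDGF reads H3K36me2 and H3K36me3 through a PWWP domain, rose by 0.44 ± 0.08 (edgeR adjusted p = 0.0172), with 0.61 in clone 1, 0.60 in clone 2 and 0.12 in clone 3. The difference of this response between clones passed the test (adjusted p = 0.0132), but not when clone 3 was left out (0.994). Of the 4 cassette genes, Sox2 and Myc passed the same test, with the clone values given above, and their part in the Psip1 result was not tested. Phf19, a PRC2-associated reader, fell by 0.22 ± 0.05 (adjusted p = 0.0288). With B12 none of the readers passed. Phf19 had the largest difference (0.17, adjusted p = 0.125), and 3 of 14 had an unadjusted edgeR p under 0.05. The median of the list was 0.04 with induction and -0.02 with B12.

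Of 10 elongation factors that act with RNA polymerase II, none passed in either averaged comparison. With induction none had an unadjusted edgeR p under 0.05 and the largest differences were those of the kinase Cdk9 (-0.06) and the PAF subunit Leo1 (0.05). With B12 the largest subunit of RNA polymerase II, Polr2a, was at -0.14 (adjusted p = 0.22) and Ctr9 at -0.09 (adjusted p = 0.33), with 8 of 10 below 0. Of 8 subunits that join KDM2B in PRC1.1, none passed either. Pcgf1, the subunit that defines the complex, was at 0.15 with induction (edgeR adjusted p = 0.209) and Bcorl1 at -0.10 (adjusted p = 0.203). Bcor was at -0.16 with B12 (adjusted p = 0.0853) and was the only one of the 8 with an unadjusted p under 0.05.

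Of 14 other JmjC proteins, 1 rose with induction, Kdm3a, an H3K9 demethylase (0.21 ± 0.04, edgeR adjusted p = 0.0207). With B12, 1 fell, Kdm5b, an H3K4 demethylase (-0.16 ± 0.04, adjusted p = 0.0332). Of 14 other SET-domain genes none passed with induction or B12, and 1 and 2 had an unadjusted edgeR p under 0.05. The germ-cell gene Prdm9 had the largest differences (0.21 and 0.38, adjusted p = 0.399 and 0.227). Of 6 enzymes of SAM supply, Ahcy, which clears S-adenosylhomocysteine, rose with induction (0.17 ± 0.04, adjusted p = 0.0326). None of these 6 passed with B12 or had an unadjusted edgeR p under 0.05, and the largest difference was that of Mtrr, the reductase that keeps methionine synthase active (0.12, adjusted p = 0.388). The 5 genes that passed lost their call without the clone term (edgeR adjusted p 0.209 to 0.575) and without clone 2 (0.37 to 0.426). The 4 induction calls were also lost without clone 1 (0.26 to 0.264), and those of Phf19 and Kdm5b without clone 3 (0.0505 and 0.383). Phf19 was also lost without the OSKM library of clone 1 (0.0515) and with library totals as scaling (0.0649). No gene of the 6 lists passed in a single comparison.

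**Figure D4:**
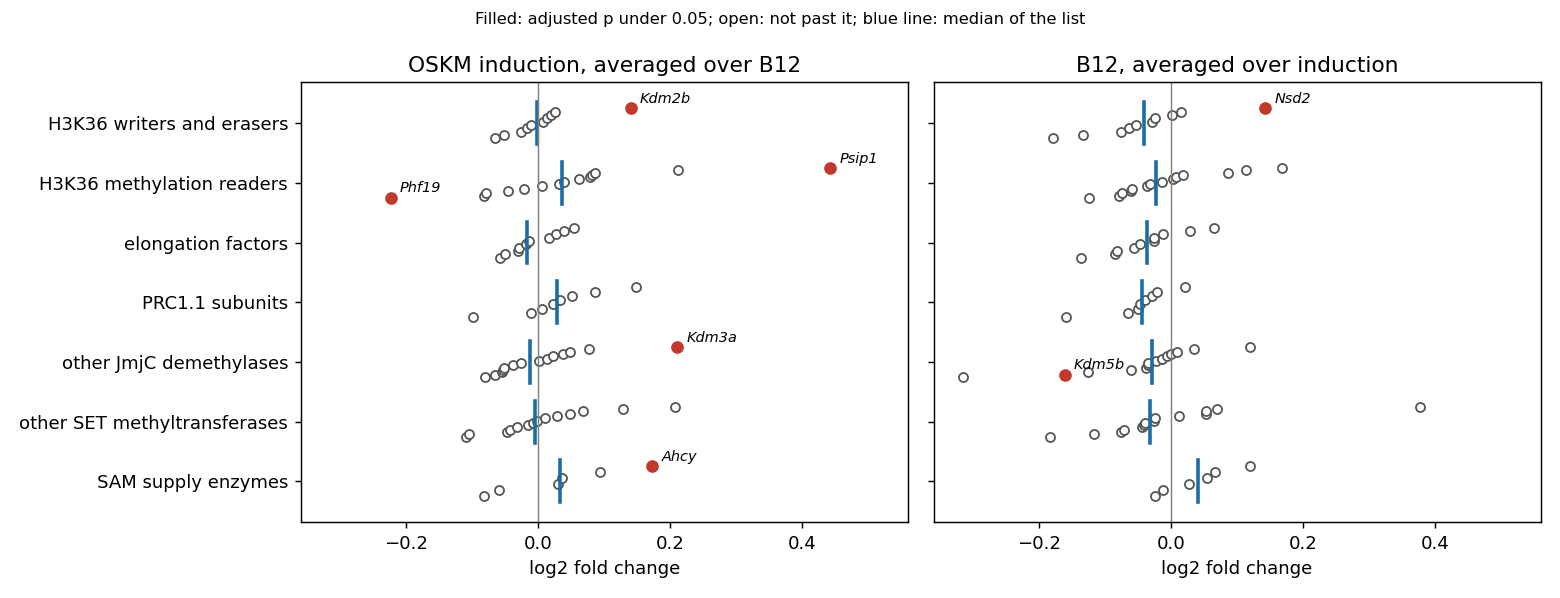
Log2 fold changes of the 10 enzymes and of 6 lists of related genes, averaged over B12 (left) or over induction (right). Filled points passed an edgeR adjusted p of 0.05, open points did not, and blue lines are list medians; at most 2 genes of a list passed in a panel.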

How the data were processed

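RNA from 12 cultures (3 embryos by 4 groups) was measured. Per the labels and the study's methods, the authors made strand-specific poly(A) libraries, aligned read pairs with STAR (version 2.5.2 in the submitters' processing notes) to mm10 (GRCm38) and used featureCounts with reverse strandedness to assign pairs to genes. The deposited values are raw counts, with flow cells of a library added together. Handling of multi-mapping reads is not given in the sources used here.

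Gene names and coordinates came from GENCODE M21, which matched 55394 of 55573 identifiers. The counts (56971244 to 79236795 per library) were tested with edgeR 4.0.16 (quasi-likelihood, TMM factors 0.934 to 1.06, filterByExpr by group, clone and group as terms, Benjamini-Hochberg over 19174 genes, threshold 0.05) in R 4.3.3. The clone was a term because each embryo gave a library of every group. Deviations of same-clone libraries correlated at 0.27 to 0.687 over 18 pairs, and those of different clones at no more than 0.17. CPM used TMM-scaled totals, and log2 CPM a prior count of 2. Averaged comparisons use the mean of both states. Scripts were tested on simulated counts without differences between embryos, for B12 in OSKM and B12 averaged over induction only. Intervals rest on the spread left after the clone and group terms. In the averaged comparisons both pairs of an embryo counted separately, so these intervals and p-values may understate the spread between embryos. Counting error does not include amplification.

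Alternatives were DESeq2 1.42.0, other scalings and filters, a GC and length correction, no clone term, and leaving out clones or the OSKM library of clone 1. All 10 genes were named in every comparison. From other lists, genes past the threshold (at most 4) or else the 2 largest differences were named. For Setd2 the 5 genes most correlated with it were named. The genes, lists and tests were chosen with earlier results of these data known, and some lists may share that origin, so the lists are no independent evidence.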

Additional observations from a re-analysis of the deposited data

Results flagged for a closer look

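The induction response of Psip1 differed between clones (edgeR adjusted p = 0.0132), with log2 fold changes of 0.61, 0.60 and 0.12 in clones 1 to 3. Sox2 and Myc of the cassette also passed this test, with the lowest values in clone 3, and their part was not tested.

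Mtf2, a PRC2-associated reader of H3K36me3, was lower with B12 in all 3 OSKM clones (-0.06) and higher in all 3 MEF clones (0.04). The interaction gave an edgeR adjusted p of 1.

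Prdm9 was higher with induction in all 3 clones without B12 (0.62) and lower in all 3 with B12 (-0.20). The interaction of -0.82 had an unadjusted edgeR p of 0.0166 and an adjusted p of 1.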

How the results depend on the processing

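Over 70 fold changes of the 10 genes, 810 values under alternatives were computed, of which 61 moved by more than 1 SE without a call at stake, 9 lost a call, 0 gained one and 0 of the called values changed sign. The count of the 10 genes that passed went from 1 to 0 without the replicate block (the clone term), both for induction and for B12 in the averaged comparisons, and from 1 to 0 for B12 without a filter on low counts. Leaving out a clone or the OSKM library of clone 1 gave 0 to 1 in both averaged comparisons and 0 to 3 for level differences between clones, which was 5 with library totals as scaling. The level differences of Kdm2b and Kdm4a between clones also lost their call without a filter and with the GC and length correction. The ratio of highest to lowest level per length went from 4.84 to 2.86 with the longest transcript. The block changed no other call among the 10 genes. Across all genes the induction count (1865, averaged) ranged from 0 without the block and 3 without clone 2 to 3056 without clone 3, and the B12 count (736) from 34 without clone 2 to 934 with DESeq2. With library totals 1496 of 2128 induction calls were higher, against 856 of 1865, and 8 of the 10 genes were above 0, against 5. The single comparisons ranged from 0 to 1322 (induction without B12, 14), 0 to 1004 (with B12, 20), 0 to 388 (B12 in OSKM, 204) and 0 to 845 (B12 in MEF, 264). The causes were not tested. With 3 embryos, Kdm2b and Nsd2 passed at 0.14 in averaged comparisons, while Ash1l at -0.25 (B12 in MEF) did not.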
